A study of Mus musculus with 5 samples.

Results

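The insulin-like growth factor (IGF) ligands *Igf1* and *Igf2* and the binding protein genes *Igfbp2*, *Igfbp3*, *Igfbp4*, *Igfbp5*, *Igfbp6* and *Igfbp7* were examined in microvessels isolated from the brains of Ins2-AKITA mice and their WT littermates. These 8 genes were chosen by name, by way of their Ensembl identifiers in the NCBIM37 annotation, from 34615 gene symbols in all. RNA from 3 WT and 2 heterozygous Ins2-AKITA mice had been sequenced, with 1 library per mouse. All 5 mice were males on a C57BL6 background, 26 to 38 weeks old, and the WT mice were littermates of the mutants. Ins2-AKITA mice carry a mutated copy of the insulin gene *Ins2* in every cell, make too little insulin and become hyperglycemic, and no other agent was given. The comparison addresses whether prolonged hyperglycemia was accompanied by a different level of IGF system RNA at the blood-brain barrier. The authors also found that the mutants stopped gaining weight while WT mice went on. High glucose, low insulin and low body weight cannot be told apart in this design. The fragments had been captured from digested brain with magnetic beads coated with an antibody to PECAM1, so that each sample mixes endothelium with attached pericytes and end-feet of astrocytes.

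IGF1 and IGF2 are small hormones related to insulin that drive growth and survival through a receptor tyrosine kinase, IGF1R, while IGF2R binds IGF2 and removes it. Outside cells most IGF is held by the IGF-binding proteins, which carry it, shield the receptor from it or, once cut by proteases, release it. IGFBP7 stands apart from the others: it binds IGFs weakly, also binds insulin, and is known as a secreted protein of blood vessels. In the brain, *Igf2* RNA is known from the leptomeninges and the choroid plexus rather than from neurons.

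The deposited values are FPKM (fragment numbers divided by exon length and by sequencing depth), which allow levels of different genes to be set side by side. The files do not list fragment numbers. These were estimated from the smallest steps between FPKM values at 1137528 to 2861563 fragments per mouse, with WT replicate 3 the deepest. Small and ribosomal RNA genes made up between 40.6% and 96.7% of the summed FPKM, so levels were kept as deposited rather than brought to equal totals. The 8 endothelial markers, *Pecam1*, *Cldn5* and *Slc2a1* among them, were above 0 in every mouse, with a summed level of 471 to 757 FPKM in WT and 392 to 511 FPKM in Ins2-AKITA mice. Markers of other cells were also high. The 6 astrocyte markers summed to 2081, 2514 and 2885 FPKM in WT and 3263 and 3861 FPKM in Ins2-AKITA mice, the 6 neuron markers to between 636 and 755 FPKM, and the 5 choroid plexus markers to between 702 and 2069 FPKM. In such a mixture, fewer cells of a type and less RNA per cell cannot be told apart. *Ins2* itself was listed at 0 in 4 mice and at 1.51 FPKM in WT replicate 3. The AKITA change is a point mutation, so the level of *Ins2* offers no check of the genotype labels.

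All 8 genes were detected in all 5 mice and passed the filter for testing, a mean of 1 FPKM or more. Averaged over the 5 mice, levels ran from *Igfbp5* (50.3 FPKM) through *Igfbp7* (46.8), *Igfbp4* (42.9), *Igf2* (34.0), *Igfbp2* (29.0), *Igfbp3* (18.1) and *Igfbp6* (10.3) to *Igf1* (3.72). For each of the 7 pairs of neighbours in this order the ranges over mice overlapped. Within mice, the first 6 pairs kept this order in 3 or 4 of the 5 mice, and *Igfbp6* was above *Igf1* in 5 of 5. The top of the order differed from mouse to mouse: *Igfbp7* was highest in WT replicate 1, *Igf2* in WT replicate 2, *Igfbp5* in WT replicate 3 and in Ins2-AKITA replicate 2, and *Igfbp4* in Ins2-AKITA replicate 1. *Igf1* was the lowest of the 8 in every mouse.

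**Figure D1:**
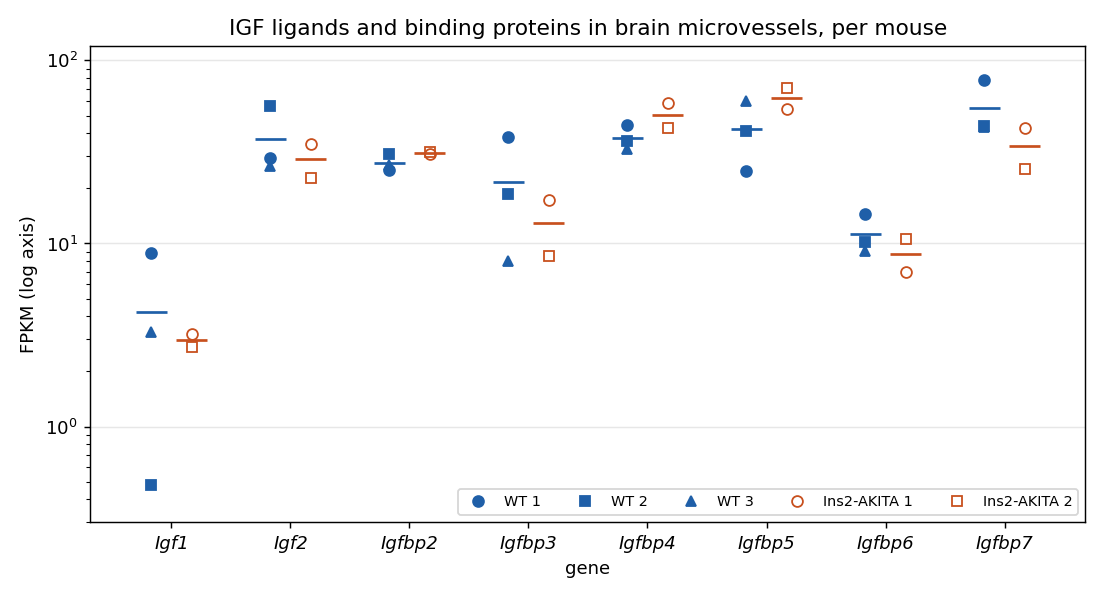
FPKM on a log axis of the 8 genes in each mouse; filled blue symbols are WT mice, open orange symbols Ins2-AKITA mice, and short lines are group means. The groups overlap for 6 genes; both Ins2-AKITA values lie above the WT values for *Igfbp2* and below them for *Igfbp7*.

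The genes are spread over 6 chromosomes of NCBIM37, with some placed close together. *Igfbp2* (chromosome 1, 72871077 to 72899048, plus strand) and *Igfbp5* (chromosome 1, 72904506 to 72921458, minus strand) face each other across a gap of 5457 bases. *Igfbp3* (chromosome 11, 7106089 to 7113926, minus strand) lies 3539 bases from *Igfbp1*, and *Igfbp4* (98902558 to 98913969, plus strand) lies far away on the same chromosome. *Igfbp7* is on chromosome 5 (77778265 to 77837070, minus strand), *Igfbp6* on chromosome 15 (101974793 to 101979942, plus strand) and *Igf1* on chromosome 10 (87321010 to 87399792, plus strand). *Igf2* (chromosome 7, 149836673 to 149852721, minus strand) is the neighbour of *Ins2*, the gene that carries the AKITA mutation, at a distance of 11839 bases. It also overlaps the antisense gene *Igf2as* over 7124 bases. The libraries were stranded, but whether strand was used for the FPKM is not stated, so reads of *Igf2* and *Igf2as* may not have been told apart; *Igf2as* was at 0.499 FPKM or less in every mouse.

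Promoter sequences are shown for the 3 binding protein genes whose part of the binding protein RNA differed most between the group means, described further down. Each is the RefSeq sequence of the 250 bases before the transcription start, given 5′ to 3′ on the strand of the gene in build GRCm38.p6, and each was found at a single place in NCBIM37, directly before the annotated start of *Igfbp7* and *Igfbp4* and overlapping that of *Igfbp5*. Capitals mark GC boxes (GGGCGG on either strand) and TATA boxes (TATAAA on either strand).
Igfbp7, chr5:77408046-77408295, minus strand: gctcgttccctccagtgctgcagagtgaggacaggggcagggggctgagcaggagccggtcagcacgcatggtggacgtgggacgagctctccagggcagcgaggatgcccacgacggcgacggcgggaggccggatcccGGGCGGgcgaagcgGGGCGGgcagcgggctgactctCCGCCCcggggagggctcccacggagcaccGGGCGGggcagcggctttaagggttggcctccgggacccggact
Igfbp5, chr1:72874866-72875115, minus strand: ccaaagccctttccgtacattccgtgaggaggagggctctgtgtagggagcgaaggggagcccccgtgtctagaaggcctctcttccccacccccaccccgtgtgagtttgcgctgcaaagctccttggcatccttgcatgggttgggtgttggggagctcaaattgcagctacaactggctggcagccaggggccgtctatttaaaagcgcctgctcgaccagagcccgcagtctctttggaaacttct
Igfbp4, chr11:99040994-99041243, plus strand: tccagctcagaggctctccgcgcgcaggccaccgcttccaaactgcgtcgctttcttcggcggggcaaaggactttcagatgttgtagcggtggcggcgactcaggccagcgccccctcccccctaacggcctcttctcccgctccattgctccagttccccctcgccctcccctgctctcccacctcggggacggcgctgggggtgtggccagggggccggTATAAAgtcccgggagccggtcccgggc
The *Igfbp7* window held 4 GC boxes, starting 110, 96, 74 and 44 bases before the start, and had a GC content of 74.0%. The *Igfbp4* window held a TATA box starting 28 bases before the start. These letters were not in the *Igfbp5* window. Among all 32851 promoter windows of this length, 32.7% held the GC box and 12.4% the TATA box. A hypoxia response core (ACGTG on either strand) was in the *Igfbp7* window, in 1 window each of *Igfbp2* and *Igf2*, and in 16.6% of all windows; the core of an insulin response element (TGTTTTG on either strand) was in none of the 12 windows of the 8 genes and in 5.56% of all windows.

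None of the 8 genes passed an adjusted p of 0.05 in limma, which tested log2(FPKM + 1) over 16286 genes. Among all these genes, 4 (0.0246%) passed and were lower in Ins2-AKITA mice, and 0 (0%) were higher. Before adjustment, 0 of the 8 genes had a p under 0.05, beside 4.46% of all genes tested. The median log2 fold change of the 8 genes was -0.16, with 3 above 0 and 5 below, beside -0.03 over all genes, of which 7568 were above 0 and 8718 below. With 3 mice against 2, an exact permutation test has 10 splits and cannot give a p below 0.1. The added 1 FPKM shrinks the fold change of a low gene such as *Igf1*.

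Among the ligands, *Igf2*, the fetal growth hormone, was at 29.3, 56.4 and 26.5 FPKM in WT replicates 1, 2 and 3 and at 34.7 and 22.9 FPKM in Ins2-AKITA replicates 1 and 2. WT replicate 2 was the highest, and the other 4 mice of both genotypes overlapped. The log2 fold change was -0.31 (95% interval -1.22 to 0.59, adjusted p = 0.91 from limma), and it was 0.02 without WT replicate 2. When every mouse was scaled to the same level of endothelial markers, which moved the median of all genes from -0.03 to 0.29, it was 0.05. *Igf1*, the hormone best known as the mediator of growth hormone, was at 8.92, 0.477 and 3.29 FPKM in WT and at 3.19 and 2.72 FPKM in Ins2-AKITA mice. Both Ins2-AKITA values lay inside the WT range, which spanned a factor of 18.7. The WT extremes correspond to an estimated 100 and 6 fragments, whose exact 95% Poisson intervals of 7.24 to 10.8 and 0.172 to 1.02 FPKM did not overlap; such intervals cover counting error only, and for a gene with 9 annotated transcripts the fragment number is approximate. The log2 fold change of *Igf1* was -0.01 (95% interval -1.91 to 1.89), became 0.65 without WT replicate 1 and -0.73 without WT replicate 2, and was also above 0 without WT replicate 3 (0.04) or Ins2-AKITA replicate 2 (0.07). Summed, the ligands were at 38.3, 56.9 and 29.8 FPKM in WT and 37.9 and 25.6 FPKM in Ins2-AKITA mice (exact two-sided permutation p = 0.4).

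The summed level of the choroid plexus markers was also highest in WT replicate 2 (2069 FPKM), although *Clic6* and *Kcnj13* were highest in WT replicate 1. Most of this sum was *Ttr* (1993 FPKM in WT replicate 2). The sum was nearly as high in WT replicate 1 (1847 FPKM) and Ins2-AKITA replicate 1 (1850 FPKM). In WT replicate 2 *Folr1*, a folate receptor, reached 38.6 FPKM while WT replicates 1 and 3 had 19.2 and 14.2 FPKM and the mutants 31.3 and 14.5 FPKM. Relative to the geometric mean of the 5 choroid plexus markers, *Igf2* was at 0.756, 1.33 and 1.40 among WT mice, against 1.01 and 1.07 in the mutants (exact two-sided permutation p = 1). The summed fibroblast and leptomeningeal markers were between 32.3 and 40.4 FPKM in all mice. The geometric mean of the 6 of them above 0 in every mouse varied more, from 2.78 to 5.38 FPKM. Relative to it, *Igf2* was at 5.45, 11.8 and 6.73 among WT mice, against 12.5 and 5.17 in the mutants (exact two-sided permutation p = 0.9). The part of these cells in the *Igf2* level was not tested.

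The binding proteins *Igfbp7*, *Igfbp3* and *Igfbp6* had a lower mean in Ins2-AKITA mice. *Igfbp7*, the vascular binding protein, was at 78.5, 44.0 and 43.4 FPKM in WT and at 42.8 and 25.4 FPKM in Ins2-AKITA mice. Both Ins2-AKITA values were below all WT values, though the margin between Ins2-AKITA replicate 1 and WT replicate 3 was small. Over all genes tested, 10.3% had both Ins2-AKITA values below all WT values and 9.24% had both above. The means were 55.3 ± 20.1 FPKM (SD, n = 3) and 34.1 ± 12.3 FPKM (SD, n = 2), which is 1.62-fold lower in the mutants. The log2 fold change was -0.67 (standard error 0.35, 95% interval -1.52 to 0.18, adjusted p = 0.90 from limma, exact permutation p = 0.2). It was -0.31 without Ins2-AKITA replicate 2, -0.39 without WT replicate 1 and -0.31 with scaling to endothelial markers. Counting error is sizeable for this short transcript: the estimated fragments ranged from 32 to 123 per mouse.

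*Igfbp3*, the main IGF carrier of blood plasma, varied most among the binding proteins, with 38.2, 18.6 and 7.99 FPKM in WT and 17.4 and 8.51 FPKM in Ins2-AKITA mice. Within each genotype the higher and the lower mouse differed by more than the genotype means of 21.6 ± 15.3 (SD, n = 3) and 12.9 ± 6.27 (SD, n = 2) FPKM. Its log2 fold change of -0.53 (95% interval -2.06 to 1.00) was -0.01 when WT replicate 1 was left out and was -0.05 without Ins2-AKITA replicate 2. *Igfbp6*, which prefers IGF2 over IGF1, was at 14.5, 10.2 and 9.12 FPKM in WT and at 7.003 and 10.6 FPKM in Ins2-AKITA mice. Only 7 to 23 fragments lay behind these values. The counting interval of the lowest (2.79 to 14.3 FPKM in Ins2-AKITA replicate 1) overlapped that of the highest (8.13 to 23.9 FPKM in WT replicate 1). The log2 fold change of *Igfbp6* was -0.33 (95% interval -1.07 to 0.42) and 0.01 with scaling to endothelial markers. It was -0.06 without Ins2-AKITA replicate 1, -0.15 without WT replicate 1 and -0.59 without Ins2-AKITA replicate 2.

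The binding proteins *Igfbp5*, *Igfbp4* and *Igfbp2* had a higher mean in Ins2-AKITA mice. *Igfbp5*, which binds to extracellular matrix, was at 24.9, 41.2 and 60.2 FPKM in WT and at 54.2 and 71.1 FPKM in Ins2-AKITA mice. WT replicate 3 lay between the mutants, so the groups overlapped. The means were 42.1 ± 17.7 FPKM (SD, n = 3) and 62.6 ± 11.96 FPKM (SD, n = 2), a log2 fold change of 0.64 (standard error 0.37, 95% interval -0.27 to 1.54, adjusted p = 0.90 from limma, exact permutation p = 0.3). Behind it lay 167 to 995 estimated fragments. *Igfbp4*, known as an inhibitor of IGF action, was at 44.3, 36.1 and 32.9 FPKM in WT and at 58.2 and 42.9 FPKM in Ins2-AKITA mice. WT replicate 1 exceeded Ins2-AKITA replicate 2 by a little, and Ins2-AKITA replicate 1 was above all others. Its log2 fold change was 0.41 (95% interval -0.15 to 0.96, limma adjusted p = 0.90). *Igfbp2*, a binding protein of brain and cerebrospinal fluid, was the steadiest of the 8, with 25.2, 30.7 and 26.8 FPKM in WT and 30.8 and 31.5 FPKM in Ins2-AKITA mice. Both Ins2-AKITA values were above all WT values, the lower of them by a margin far inside the counting error. The highest mouse exceeded the lowest by a factor of 1.25, and the log2 fold change was 0.18 (95% interval -0.28 to 0.64). These 3 genes stayed above 0 with each mouse left out and with each scaling, but their size moved. *Igfbp5* was at 0.31 without WT replicate 1 and 1.001 with scaling to endothelial markers. *Igfbp4* was at 0.19 without Ins2-AKITA replicate 1, 0.62 without Ins2-AKITA replicate 2 and 0.77 with that scaling. *Igfbp2* was at 0.12 without WT replicate 1 and 0.54 with that scaling.

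In all, the groups did not overlap for 2 of the 8 genes, 1 in each direction, beside 19.5% of all genes tested.

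Levels of these genes were next set beside those of marker genes. All 6 astrocyte markers had a log2 fold change above 0 (0.37 to 0.62, 0 past the adjusted threshold in limma). In WT mice their summed level, the largest part of it *Slc1a2*, followed the order of *Igfbp5*, lowest in replicate 1 and highest in replicate 3. However, *Gfap*, *Gja1* and *Aldoc* were lowest in WT replicate 2. The summed level was highest of all in Ins2-AKITA replicate 2. Ins2-AKITA replicate 1 exceeded WT replicate 3 in this sum (3263 against 2885 FPKM) but not in *Igfbp5* (54.2 against 60.2 FPKM). Relative to the geometric mean of the 6 astrocyte markers, *Igfbp5* was at 0.133, 0.198 and 0.213 among WT mice, against 0.191 and 0.204 in the mutants. The log2 difference was 0.15 (exact two-sided permutation p = 0.9). Of the 8 endothelial markers 7 had a log2 fold change below 0, with a median of -0.39. Relative to their geometric mean, *Igfbp7* was at 1.46, 0.589 and 0.902 among WT mice, against 0.840 and 0.649 in the mutants, and the groups overlapped (log2 difference -0.32, exact two-sided permutation p = 0.7). Against the 8 pericyte markers the log2 difference of *Igfbp7* was -0.35 (exact permutation p = 0.4). The 4 smooth muscle markers, *Acta2*, *Tagln*, *Myh11* and *Cnn1*, had a summed level of 212 to 249 FPKM in WT and 129 to 166 FPKM in Ins2-AKITA mice. Among WT mice this sum was lowest in replicate 1, where *Igfbp7* was highest, although *Tagln* and *Cnn1* were also highest in replicate 1. Each of the 4 had both Ins2-AKITA values below all WT values, beside 10.3% of all genes tested, with a median log2 fold change of -0.66. In limma 3 had an unadjusted p under 0.05, beside 4.46% of all genes tested, but 0 passed after adjustment (adjusted p = 0.90). *Igfbp4* had 0.823, 0.484 and 0.683 relative to the endothelial markers among WT mice, against 1.14 and 1.096 in the mutants (log2 difference 0.79, exact permutation p = 0.2), and overlapped between groups relative to the astrocyte markers (log2 difference -0.09, exact permutation p = 0.9). The 6 microglia markers summed to 46.8 FPKM in WT replicate 1, the mouse with the most *Igf1*, and to between 81.4 and 96.7 FPKM in the others. These ratios were chosen after the values had been seen, and the part of each cell type in the levels was not tested further.

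**Figure D2:**
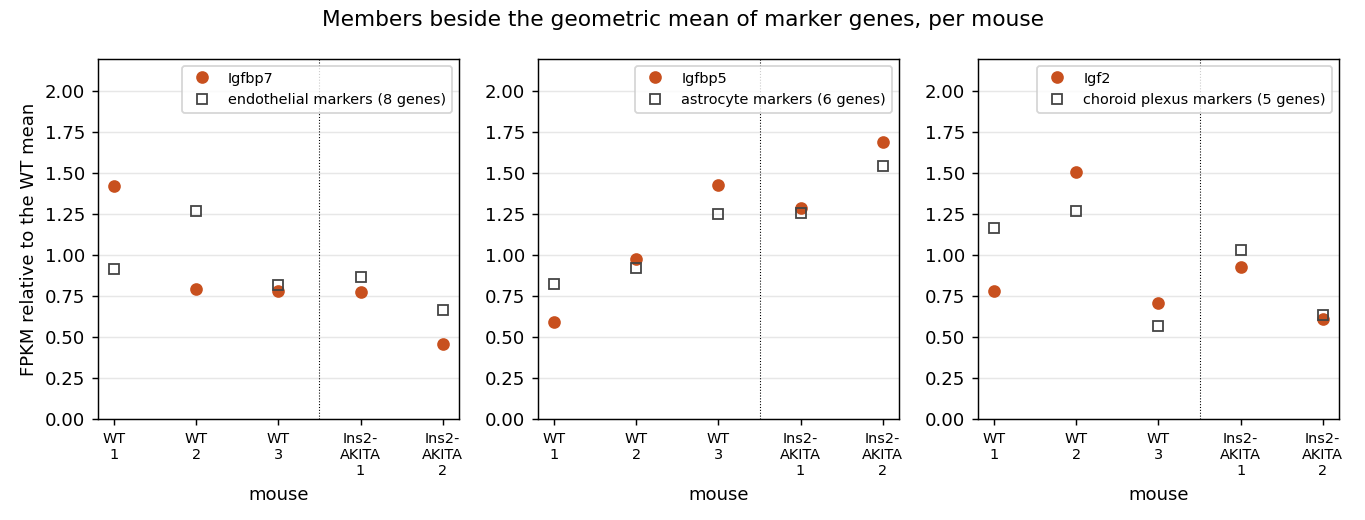
FPKM relative to the mean of the 3 WT mice (vertical axis) in each mouse, for *Igfbp7*, *Igfbp5* and *Igf2* (filled circles) and for the geometric mean of the endothelial, astrocyte or choroid plexus markers (open squares). *Igfbp5* and the astrocyte markers are both lowest in WT replicate 1 and highest in Ins2-AKITA replicate 2; *Igfbp7* departs from the endothelial markers most in WT replicates 1 and 2.

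The summed level of binding protein RNA did not separate the genotypes. The shares of *Igfbp7* and *Igfbp4* in it did not overlap between them. The levels of 19.5% of all genes tested did not overlap either, but that is a background for levels, and none was computed for shares. Summed FPKM of the 6 binding proteins was 226, 181 and 180.4 among WT mice, against 210.4 and 190.0 in the mutants, with means of 196 ± 25.9 (SD, n = 3) and 200.2 ± 14.4 (SD, n = 2). This difference of 4.56 FPKM was far below the spread between mice (exact two-sided permutation p = 0.8), and its sign turned when values were scaled to the sum of nuclear protein-coding genes (-0.36), without WT replicate 2 (-2.78) or 3 (-3.06), and without Ins2-AKITA replicate 1 (-5.64). A share within a mouse does not change when all values of that mouse are multiplied by a common factor. *Igfbp7* made up 34.8%, 24.3% and 24.1% of the summed binding protein FPKM in WT mice, against 20.4% and 13.4% in the mutants. The mean shares were 27.7% ± 6.13 (SD, n = 3) and 16.9% ± 4.94 (SD, n = 2), and the groups did not overlap (exact two-sided permutation p = 0.1, the smallest this design allows). *Igfbp4* had the reverse pattern, with shares of 19.6%, 19.98% and 18.2% among WT mice, against 27.7% and 22.6% in the mutants (exact two-sided permutation p = 0.1). The share of *Igfbp5* was 11.02%, 22.8% and 33.4% among WT mice, against 25.7% and 37.4% in the mutants, so the groups overlapped (exact permutation p = 0.4). *Igfbp2*, *Igfbp3* and *Igfbp6* shares overlapped as well, with exact permutation p values of 0.9, 0.5 and 0.4. The ratio of *Igfbp5* to *Igfbp7*, chosen after the values had been seen, ran from 0.317 in WT replicate 1 to 2.80 in Ins2-AKITA replicate 2, with Ins2-AKITA replicate 1 (1.26) below WT replicate 3 (1.39). Shares of 1 sum are not independent, since a lower share of 1 gene raises the others.

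**Figure D3:**
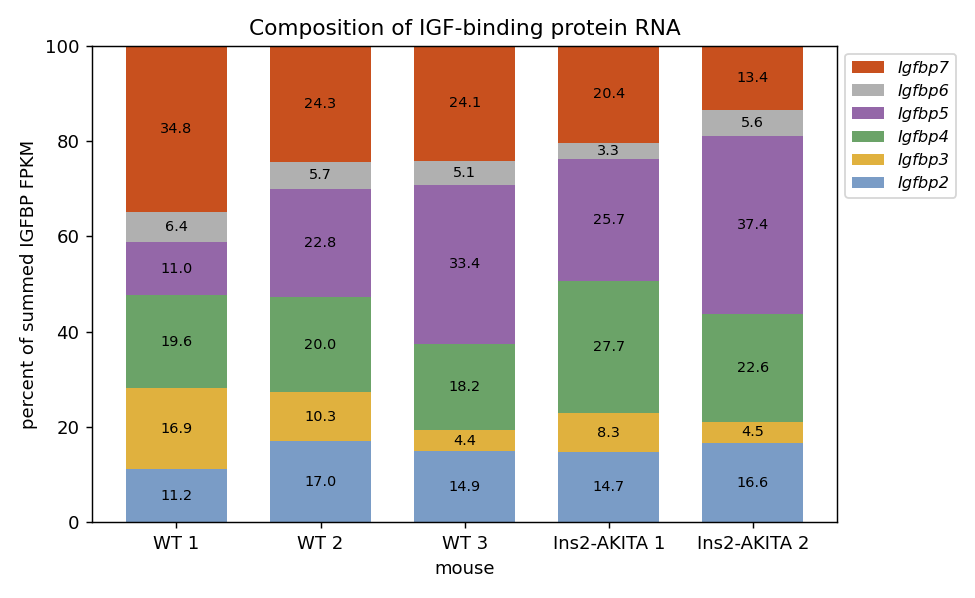
Each bar is 1 mouse and shows the percent of summed IGFBP FPKM that belonged to each of the 6 binding protein genes. The *Igfbp7* segment is 24.1% or more in the WT mice and 20.4% or less in the Ins2-AKITA mice.

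Among the receptors, *Igf1r*, the signaling receptor, was at 51.8, 55.9 and 42.5 FPKM in WT and at 44.4 and 36.8 FPKM in Ins2-AKITA mice, so its level was close to that of the most abundant binding proteins. *Insr*, the insulin receptor, was at 28.8, 27.7 and 21.7 FPKM in WT and at 21.8 and 20.1 FPKM in Ins2-AKITA mice. *Igf2r*, the scavenger receptor of IGF2, was at 15.5, 11.1 and 9.23 FPKM in WT and at 10.04 and 7.09 FPKM in Ins2-AKITA mice. For each receptor the lower Ins2-AKITA mouse was below all WT mice and the other lay within the WT range. Their log2 fold changes were -0.29, -0.30 and -0.43, with an adjusted p of 0.90 for each in limma. With scaling to endothelial markers *Igf1r* (0.07) and *Insr* (0.06) were above 0. *Insrr*, a related receptor, was at 0 in 4 mice and at 0.157 FPKM in WT replicate 3.

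Among proteases and other partners, *Htra1*, a serine protease that cuts IGF-binding proteins and is known for its link to inherited small vessel disease of the brain, was abundant, with 103, 84.2 and 93.5 FPKM in WT and 89.0 and 120.1 FPKM in Ins2-AKITA mice. *Lrp1*, a large endocytic receptor that also binds IGFBP3, had between 85.8 and 125 FPKM. The pregnancy-associated plasma protein genes, whose products cut IGFBP4 and IGFBP5, were low: *Pappa* did not exceed 0.210 FPKM, and *Pappa2* had 2.84, 3.35 and 0.365 FPKM in WT and 0.205 and 3.65 FPKM in Ins2-AKITA mice, with the lowest and the highest value both among the mutants. Their inhibitors *Stc1* and *Stc2* had at most 1.72 and 0.716 FPKM. *Tmem219*, a cell surface receptor of IGFBP3, varied between 4.39 and 17.4 FPKM within WT mice alone. *Igfbp1*, the binding protein that the liver makes when insulin is low, was at 1.32 FPKM (about 2 fragments) in WT replicate 1 and at 0 in the other mice. *Igfals*, which holds the ternary IGF complex in plasma, was at 0 in all mice, where 3 fragments would have given 0.393 to 0.988 FPKM. *Igfbpl1* did not exceed 1.4999 FPKM.

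Of the 21 genes of receptor signaling, from the receptor substrates to *Akt1*, *Mtor* and *Foxo1*, all were tested, 10 had a log2 fold change above 0 and 11 below, and 0 passed a threshold of 0.05, adjusted or not. *Grb2*, an adaptor that links receptors to Ras, was the highest, with 53.7, 75.3 and 57.8 FPKM in WT and 81.8 and 85.0 FPKM in Ins2-AKITA mice (log2 fold change 0.43, 95% interval -0.07 to 0.93, adjusted p = 0.90 from limma). *Irs2*, a substrate of the insulin and IGF1 receptors, was the lowest, with 24.1, 16.95 and 18.8 FPKM in WT and 15.4 and 16.0 FPKM in Ins2-AKITA mice (log2 fold change -0.31, and 0.04 with scaling to endothelial markers). Over all 41 other pathway genes, 29 reached a mean FPKM of 1, 12 of these had a log2 fold change above 0 and 17 below, and 0 passed the adjusted threshold in limma or had an unadjusted p under 0.05. Their median log2 fold change was -0.10.

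**Figure D4:**
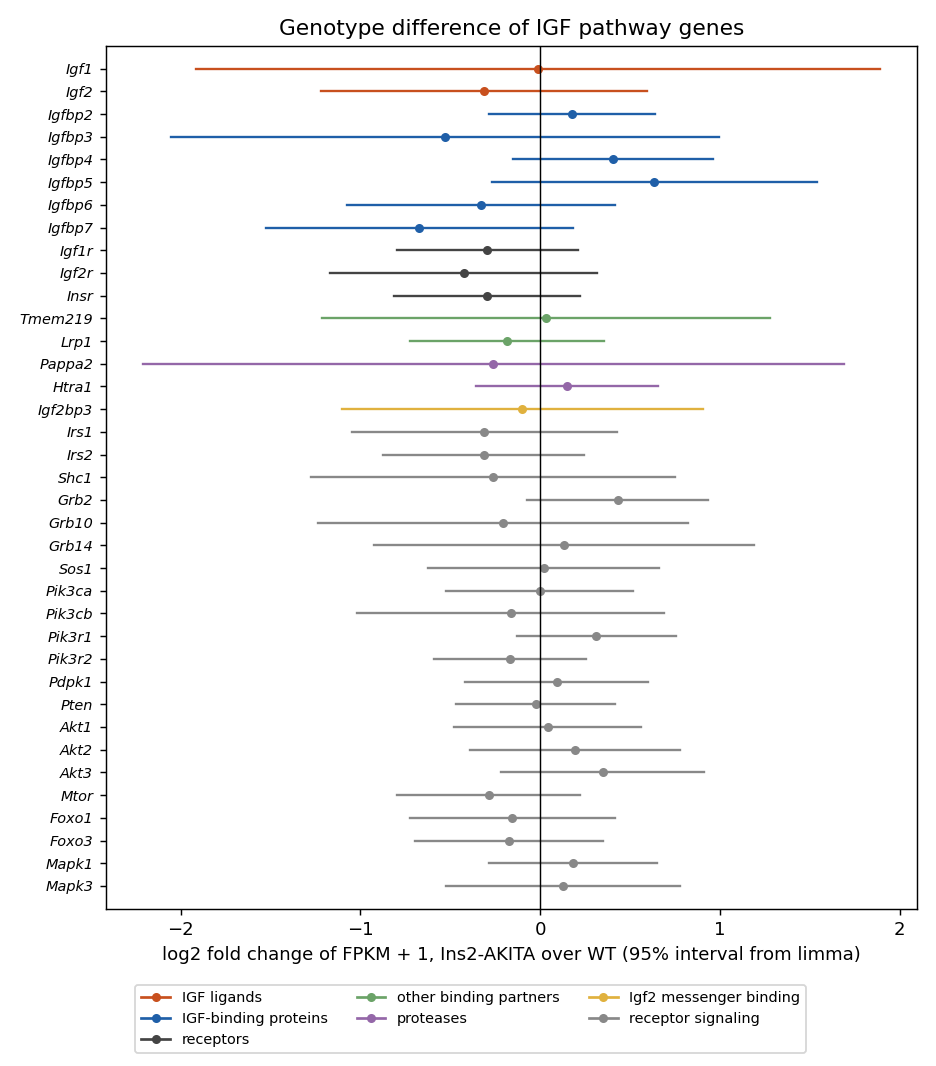
Log2 fold change of FPKM + 1 (Ins2-AKITA over WT, horizontal axis) with its 95% interval from limma for the 37 tested genes of the IGF system, grouped by role. Every interval includes 0, and the widest belong to *Igf1*, *Igfbp3* and *Pappa2*, which differ most among mice of the same genotype.

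The widths of these intervals state how closely 5 mice fixed each fold change. For *Igfbp2* the interval leaves room for fold changes between 0.821 and 1.56 of FPKM + 1, and for *Igfbp4* between 0.901 and 1.95. For *Igf1* it runs from 0.266 to 3.70 and for *Igfbp3* from 0.241 to 2.00, so differences of that size would not have been told from 0.

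**Figure D5:**
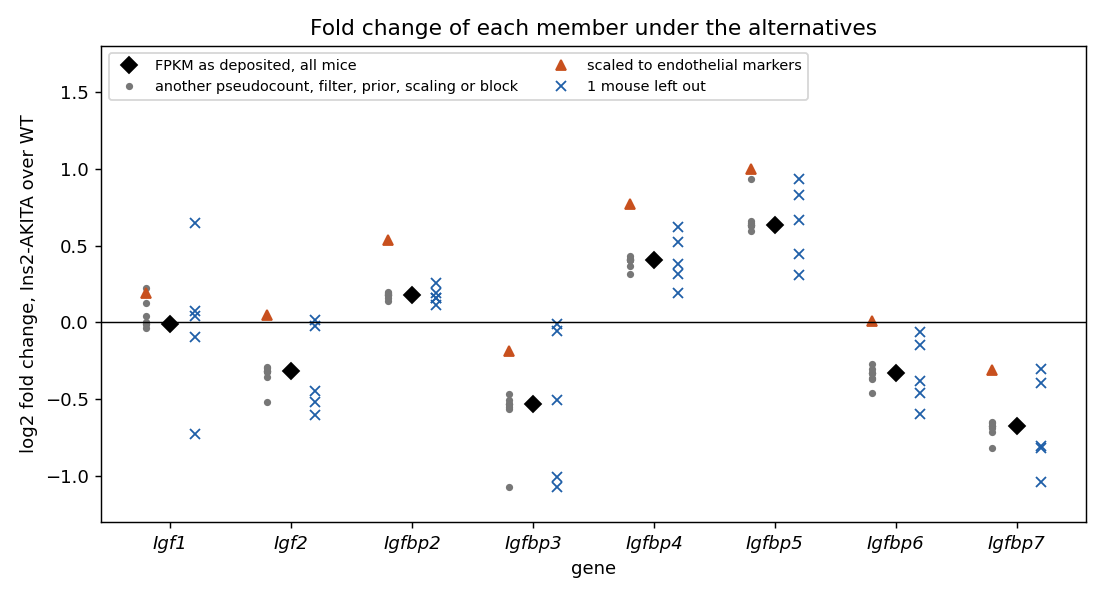
Log2 fold change (Ins2-AKITA over WT, vertical axis) of the 8 genes as deposited with all mice (diamonds), with other settings (dots), with every mouse scaled to the same level of endothelial markers (triangles) and with 1 mouse left out (crosses). *Igfbp7* and *Igfbp3* stay below 0 and *Igfbp2*, *Igfbp4* and *Igfbp5* above it throughout, while *Igf1*, *Igf2* and *Igfbp6* cross it.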

How the data were processed

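Total RNA was depleted of ribosomal and transfer RNA, and stranded libraries were sequenced on a HiSeq 2500. The authors mapped reads to NCBIM37 with TopHat2 (version 2.0.4), removed duplicated reads with Picard (version 1.92) and tested with Cufflinks (version 2.2.1). They deposited 1 FPKM value per Ensembl gene and mouse, with no pooling; the program behind these values is not given in the sources used here. Removing duplicates can lower the values of short abundant genes.

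Identifiers were matched to GENCODE vM1 (37197 of 37982), and rows sharing a symbol were summed. Genes with a mean FPKM of at least 1 (16286) entered limma (version 3.58.1, R 4.3.3) (trended prior, two-sided, Benjamini-Hochberg) on log2(FPKM + 1), genotype being the only factor. Cufflinks needs reads and was not rerun. The fit was tested on simulated data. Sums, shares and ratios were compared by exact permutation over all 10 splits with Python 3.11.15. Fragment numbers came from genes with 1 transcript, where 97.16% to 97.64% of values up to 5 fragments fell within 0.05 of a whole number once 220 to 225 bases were taken off the exon length. Replicate numbers in the labels name no pairs, so they were not used as a block. Members and gene lists were chosen with earlier results of these data known. All 8 genes are named, with every receptor, partner, protease and *Igf2* neighbour listed, the extremes of receptor signaling, and 3 genes of similar pattern per member, of which 1 is not reported here. Alternatives covered the pseudocount, the filter, 4 scalings, the prior, the replicate block and each mouse left out.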

Additional observations from a re-analysis of the deposited data

How the results depend on the processing

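None of the 8 genes and 0 of the other pathway genes passed an adjusted p of 0.05 in limma under any of the 14 alternatives, and the lowest adjusted p of any of the 8 was 0.58. Over all genes, the number higher in Ins2-AKITA mice (0) became 1 with a constant prior and the number lower (4) became 2 with no filter, with a mean FPKM of at least 5 or with a constant prior; with 1 mouse left out they ranged from 0 to 10 and from 1 to 6 (10 higher without Ins2-AKITA replicate 2, 6 lower without WT replicate 3, 1 lower without either mutant). A lone Ins2-AKITA mouse was assumed to vary like the WT mice. Of 249 single-gene values, 223 kept their sign and 26 turned it; the cause was not tested. With endothelial marker scaling these were *Igf1* 0.19, *Igf2* 0.048, *Igfbp6* 0.011, *Igf1r* 0.072, *Insr* 0.062, *Lrp1* 0.19, *Pappa2* 0.038, *Igf2bp3* 0.16 and *Irs2* 0.038, and the summed ligands became 0.099 FPKM. *Igf1* was also 0.22 with a pseudocount of 0.1, 0.0043 with median-ratio scaling and 0.13 with quantile normalization, which put *Pappa2* at 0.14 and *Igf2bp3* at 0.059. TPM over nuclear protein-coding genes gave -0.0051 for *Tmem219* and -0.36 FPKM for summed binding proteins. Leaving out each mouse in turn gave -0.73 to 0.65 for *Igf1*, -0.60 to 0.017 for *Igf2*, -0.46 to 0.43 for *Tmem219*, -0.41 to 0.043 for *Lrp1*, -1.23 to 0.72 for *Pappa2*, -0.065 to 0.36 for *Htra1*, -0.24 to 0.0042 for *Igf2bp3* and -5.64 to 19.5 FPKM for summed binding proteins.

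With the replicate number as a block, 440 genes were higher and 809 lower at an unadjusted p under 0.05, against 249 and 477 without it, and 5 passed the adjusted threshold. In the block fit *Igf1* was at 0.043 and the summed binding proteins at -3.06 FPKM. *Igfbp3* (-1.07), *Igfbp5* (0.93) and *Igfbp7* (-0.81) then had an unadjusted p of 0.013, 0.016 and 0.018 in limma and an adjusted p of 0.60 each; WT replicate 3 has no partner in that fit. Deviations of same-numbered mice correlated at 0.051 and -0.034 across genes, and since the 2 mutants deviate from their mean by mirror-image amounts, pairing could not be judged from them. Without WT replicate 3, *Igfbp5* had an unadjusted p of 0.036 and an adjusted p of 0.58 in limma. Of 16286 genes tested in that fit, 494 were higher and 908 lower at an unadjusted p under 0.05. The log2 fold change of *Igfbp5* there was 0.93, the same as in the block fit, so these are not separate results. Few fragments lay behind *Igfbp6* (7 to 23 per mouse) and behind *Igf1* in WT replicate 2 (6).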

Other observations

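For each of the 8 genes, the protein-coding genes with the most similar pattern over the 5 mice were sought among 9905 genes with a mean FPKM of at least 5, by the root mean square difference of mean-centred log2(FPKM + 1). For *Igfbp5*, which had 142 genes within 0.2, these were *Sspn* (0.06), *Kcnj16* (0.07), a potassium channel gene, and *Ncan* (0.08), which encodes a proteoglycan made by astrocytes. *Sspn*, the nearest, was at 4.07, 6.51 and 10.1 FPKM in WT and 9.28 and 11.6 FPKM in Ins2-AKITA mice. *Ncan* was at 30.7, 49.9 and 71.4 FPKM in WT and 61.6 and 75.4 FPKM in Ins2-AKITA mice. For *Igfbp7* they were *Atad3a* (0.05), *Sgsm1* (0.07) and *Psrc1* (0.08), for *Igf2* *Galnt7* (0.05), *Trim47* (0.07) and *Ephb6* (0.08), and for *Igfbp3* *Pla2g3* (0.08), *Efcab6* (0.12) and *Ptchd2* (0.17). *Igfbp4* was nearest to *Psmd13* (0.05), *BC046404* (0.06) and *Mppe1* (0.06), and *Igfbp6* to genes that included *Tacc2* (0.04) and *Dtnb* (0.06). The steady *Igfbp2* had 2144 genes within 0.2 and was nearest to *Hey2* (0.02), *Mccc1* (0.02) and *Dnajc13* (0.03), while *Igf1* had 0 genes within 0.2, with *Sntg2* (0.29), *Mapk7* (0.30) and *Tmem219* (0.32) nearest. With 5 mice such likeness is a description of these libraries.

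Around *Igf2*, the imprinted neighbour *H19*, known to be expressed from the opposite parental copy, was at 1.21 FPKM (about 3 fragments) in WT replicate 1 and at 0 in the other mice, against 22.9 to 56.4 FPKM for *Igf2*. Among genes of proteins that bind the *Igf2* messenger, *Igf2bp3* had between 1.53 and 2.58 FPKM, *Igf2bp2* at most 0.545 FPKM, and *Igf2bp1* was at 0 in 4 mice and at 0.758 FPKM, about 21 fragments, in WT replicate 3.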
